A study of Mus musculus with 32 samples.

Results

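Peroxiredoxins and thioredoxins are the cell's main enzymes for removing hydrogen peroxide with protein thiols, and 10 mouse genes of this system were followed: Prdx1 to Prdx6, Txn1, Txn2, Txnrd1 and Txnip. The members were every probe set annotated to one of these genes, matched by gene ID and not by older synonyms, since Prdx5 and Prdx6 are old synonyms of each other. The rule itself used no measured value, but the genes were chosen with earlier results of these data known. This gave 22 of 45137 probe sets (array control probe sets left out), 21 on array A and 1 on array B, covering 8 of the 10 genes. Prdx2 and Txnip had 2 probe sets each, Txn1 had 2, Txn2 and Txnrd1 had 3 each, Prdx3 had 1, Prdx4 had 4 and Prdx1 had 5. All 5 Prdx1 probe sets were annotated jointly to Prdx1 and to Gm21399, so their values cannot be assigned to Prdx1 alone. Prdx5 and Prdx6 had 0 probe sets in the annotation and were not analysed here. All 22 probe sets passed the filter on low values, which for array A required a mean log2 value of at least 4.97 over all 16 RNA extracts.

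Fibroblasts of mouse embryos (MEFs), primary and at early passage, gave RNA in 4 groups of 4 replicates: Oct-1 mutant irradiated, Oct-1 mutant unirradiated, wild type irradiated and wild type unirradiated. Each of the 16 extracts was measured on 2 Affymetrix array types, called array A and array B, which gave 32 samples. Oct-1 is a transcription factor encoded by Pou2f1, and the comparisons ask what its mutation and irradiation did to RNA levels. No source used here gives the mutant allele, how much radiation the cells had and how long before RNA was taken, the mouse strain, or whether replicates were separate embryos or cultures. P-values thus measure the spread between these samples, which may be partly technical, and 4 arrays per group limit their precision.

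In this system a peroxiredoxin reduces hydrogen peroxide with a reactive cysteine and is itself oxidised. Thioredoxin reduces it again, and thioredoxin reductase recharges thioredoxin with electrons from NADPH. Prdx1 and Prdx2 work mainly in the cytosol, Prdx3 in mitochondria and Prdx4 in the endoplasmic reticulum; Txn1 is the cytosolic and Txn2 the mitochondrial thioredoxin, and Txnrd1 is the cytosolic reductase. Txnip, an alpha-arrestin, binds reduced thioredoxin, blocks it and limits glucose uptake, and its transcription responds to glucose through the factors MondoA and ChREBP with their partner Mlx.

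Promoter sequences of the genes that carried the genotype results are shown first because Oct-1 is a DNA-binding factor whose best known site is the octamer ATGCAAAT. RefSeq windows of 300 bases (250 before to 50 after a gene start, GRCm38.p6) were found for 9 of the 10 genes, 11 windows in all, and no window for Prdx6. Read on both strands, the octamer was in 0 of the 11 windows and in 570 of all 32851 promoter windows (1.74%). The antioxidant response element core TGACNNNGC, the site of the oxidant-responsive factor NRF2, was in 2 of the 11, against 12.4% of all windows: 133 to 125 bases before the start of Prdx1 and 92 to 84 bases before 1 start of Txnrd1. The E-box CACGTG was in 1 of the 11, that of Prdx4, against 7.15% of all. After the sequences had been read, CCAAT (37.4% of all windows) was found in Prdx4, Txn2, Txnrd1 and, at 2 places, Txnip. A repeat of CACGAG with 5 bases between the copies was also found then, 85 to 69 bases before the Txnip start. Of the 32851 windows 1 (0.00304%) held it, that of Txnip itself. The pattern was chosen after this window had been read, so its presence there was fixed by the choice. In the Txnip window the capitals mark the CCAAT letters, on either strand, and that repeat; in the Txnrd1 window they mark CCAAT and the antioxidant response element core on the minus strand; the Prdx2 window holds none of the letters searched. None of the motifs overlapped in these windows. A match in a window is a description of letters, and no match says only that these letters are not there.
Txnip, chr3:96557707-96558006, plus strand: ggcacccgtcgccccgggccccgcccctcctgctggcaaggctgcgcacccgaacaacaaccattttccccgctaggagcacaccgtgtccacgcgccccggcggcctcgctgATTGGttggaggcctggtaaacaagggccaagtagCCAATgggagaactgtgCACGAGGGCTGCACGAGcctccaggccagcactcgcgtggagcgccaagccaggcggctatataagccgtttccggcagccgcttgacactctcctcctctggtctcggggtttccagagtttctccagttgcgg
Txnrd1, chr10:82858956-82859255, plus strand: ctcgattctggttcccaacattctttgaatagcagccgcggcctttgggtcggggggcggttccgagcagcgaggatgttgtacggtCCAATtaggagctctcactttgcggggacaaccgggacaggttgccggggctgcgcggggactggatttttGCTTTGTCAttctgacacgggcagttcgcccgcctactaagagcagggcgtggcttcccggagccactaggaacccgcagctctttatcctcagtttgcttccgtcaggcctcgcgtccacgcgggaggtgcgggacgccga
Prdx2, chr8:84969372-84969671, plus strand: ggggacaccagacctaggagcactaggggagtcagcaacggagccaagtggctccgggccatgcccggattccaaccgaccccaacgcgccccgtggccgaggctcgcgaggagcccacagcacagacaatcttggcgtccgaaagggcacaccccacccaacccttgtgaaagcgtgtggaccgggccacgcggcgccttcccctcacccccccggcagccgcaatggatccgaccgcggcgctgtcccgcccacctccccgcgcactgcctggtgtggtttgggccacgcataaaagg

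Before the results, the labels were set against the data. Irradiation raised the p53 targets Cdkn1a, a cell cycle inhibitor, and Mdm2, the p53 ubiquitin ligase, in both genotypes: on the log2 scale Cdkn1a differed by 1.23 in mutant and 1.39 in wild type cells and Mdm2 by 1.60 and 1.74 (limma adjusted p at most 0.00484). Pou2f1, the mutated gene, was outside the genes followed here, and its level was not analysed. The correlation between replicates was at least 0.9758 for array A and 0.9731 for array B. All 12 fibroblast markers passed the filter, with a median at the 96.9 percentile of array A levels, and 0 of 5 endothelial markers did. Markers and sex-linked genes moved with genotype. Mean fibroblast marker log2 levels were 11.36 to 11.69 in irradiated mutants against 10.91 to 11.05 in irradiated wild type. They were 11.52 to 11.88 in unirradiated mutants against 11.13 to 11.22 in unirradiated wild type. Averaged over irradiation, 4 of 12 markers were called higher in the mutant, against 6.25% of all probe sets called. With the replicate number as a block it was 10, against 13.9%. Mean erythroid markers, of which 1 was tested, were at 3.46 to 3.70 in irradiated mutants against 3.45 to 3.55 in irradiated wild type, and at 3.50 to 3.63 in unirradiated mutants against 3.41 to 3.56 in unirradiated wild type. Mean leukocyte markers were at 4.07 to 4.15 in irradiated mutants against 3.89 to 4.03 in irradiated wild type, and at 3.93 to 4.08 in unirradiated mutants against 3.85 to 4.01 in unirradiated wild type. Mean epithelial markers were at 4.74 to 4.94 in irradiated mutants against 4.69 to 4.90 in irradiated wild type, and at 4.83 to 4.85 in unirradiated mutants against 4.69 to 4.82 in unirradiated wild type. Krt18, an epithelial keratin, was called higher in the mutant, by 0.46 (limma adjusted p = 0.0165). Endothelial and muscle means overlapped between genotypes. Mean adipocyte markers were at 6.29 to 6.44 in irradiated mutants against 6.42 to 6.60 in irradiated wild type, and at 6.36 to 6.57 in unirradiated mutants against 6.60 to 6.75 in unirradiated wild type, with Fabp4, a fatty acid binding protein, called lower (-0.52, adjusted p = 0.00118). Mean neural marker levels were 6.34 to 6.67 in all mutant against 6.75 to 7.15 in all wild type extracts. In genes chosen after their values were seen, the Y-linked Eif2s3y was at 8.46 to 9.32 in mutant against 3.00 to 4.02 in wild type extracts, and Xist, the X-inactivation transcript, at 3.16 to 3.29 in mutant against 8.19 to 9.78 in wild type extracts. Ifi202b, an interferon-inducible gene known to differ in expression between mouse strains and also chosen after its values were seen, was at 8.16 to 9.18 in mutant against 3.49 to 4.01 in wild type extracts. The labels used here give no strain. Genotype, sex-linked and strain differences therefore cannot be told apart in these samples, and the part of these markers in the genotype results was not tested. In bulk RNA, fewer cells of a type and less RNA per cell cannot be told apart either.

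The clearest difference among the 22 probe sets was between Oct-1 mutant and wild type cells at 1 of the 2 probe sets of Prdx2, the cytosolic peroxiredoxin abundant in red cells, which lies on chromosome 8 (84969622 to 84974811, GRCm38.p6). Probe set 1430979_a_at, annotated with AK011963, had log2 values of 7.51, 7.70, 8.06 and 8.09 in irradiated mutant cells against 3.66, 3.93, 4.30 and 4.67 in irradiated wild type cells. In unirradiated cells it had 7.39, 7.47, 8.03 and 8.18 in the mutant against 4.09, 4.15, 4.66 and 4.75 in the wild type. Every mutant value was above every wild type value, with a gap of more than the whole spread of either genotype. The mean was 7.84 ± 0.28 in irradiated mutant and 4.14 ± 0.44 in irradiated wild type cells, and 7.77 ± 0.39 in unirradiated mutant and 4.41 ± 0.34 in unirradiated wild type cells (SD, n = 4 each). Averaged over irradiation, with means of 7.80 in the mutant and 4.28 in the wild type, the difference was 3.53 on the log2 scale (SE 0.17, limma, adjusted p = 1.43e-09). Replicates 1 and 2 alone gave 3.56 and replicates 3 and 4 alone gave 3.49. The difference was 3.70 in irradiated and 3.36 in unirradiated cells (adjusted p = 1.26e-07 and 4.3e-07), and all 3 calls held with each of the 16 extracts left out in turn. The wild type means were below 4.97, so the probe set passed the filter on low values only through the mutant groups. Its difference and p are thus against a level not shown to be above background, and the difference may be a lower bound.

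The other Prdx2 probe set, 1418506_a_at (NM_011563), did not show this. Its log2 values were 12.08, 12.16, 12.24 and 12.35 in irradiated mutants against 12.01, 12.05, 12.23 and 12.27 in irradiated wild type cells. In unirradiated cells they were 11.86, 11.96, 12.18 and 12.34 in the mutant against 12.06, 11.91, 12.32 and 12.24 in the wild type. The genotypes overlapped throughout, and the averaged difference was 0.01 with a 95% interval of -0.15 to 0.18 (limma, adjusted p = 0.961). The genotype differences of the 2 probe sets were -3.52 apart (1418506_a_at minus 1430979_a_at). An exact two-sided permutation test within irradiation state, added after the data had been seen, gave p = 0.00041, the smallest that its 4900 arrangements allow. After adjustment over 22 pairs of probe sets it was 0.00449 (0.017 with arrangements also kept within pairs of replicate numbers). The separation of the genotypes at 1430979_a_at was already known and fixed the unadjusted p beforehand, so the test adds no support. Across the 16 extracts, with the means of replicates 1 and 2 and of replicates 3 and 4 removed, the 2 probe sets correlated at 0.09. Genotype means were not removed, so this value largely restates a genotype difference present at only 1 of them. Both probe sets were higher in replicates 3 and 4 than in 1 and 2, by 0.26 at 1418506_a_at and 0.61 at 1430979_a_at. Which transcripts either probe set detects, and whether the pseudogenes Prdx2-ps1 and Prdx2-ps2 in the RefSeq gene table contribute, was not tested. Neither probe set was called for irradiation: the averaged differences were -0.10 (95% interval -0.46 to 0.26) for 1430979_a_at and 0.07 (-0.10 to 0.23) for 1418506_a_at.

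**Figure D1:**
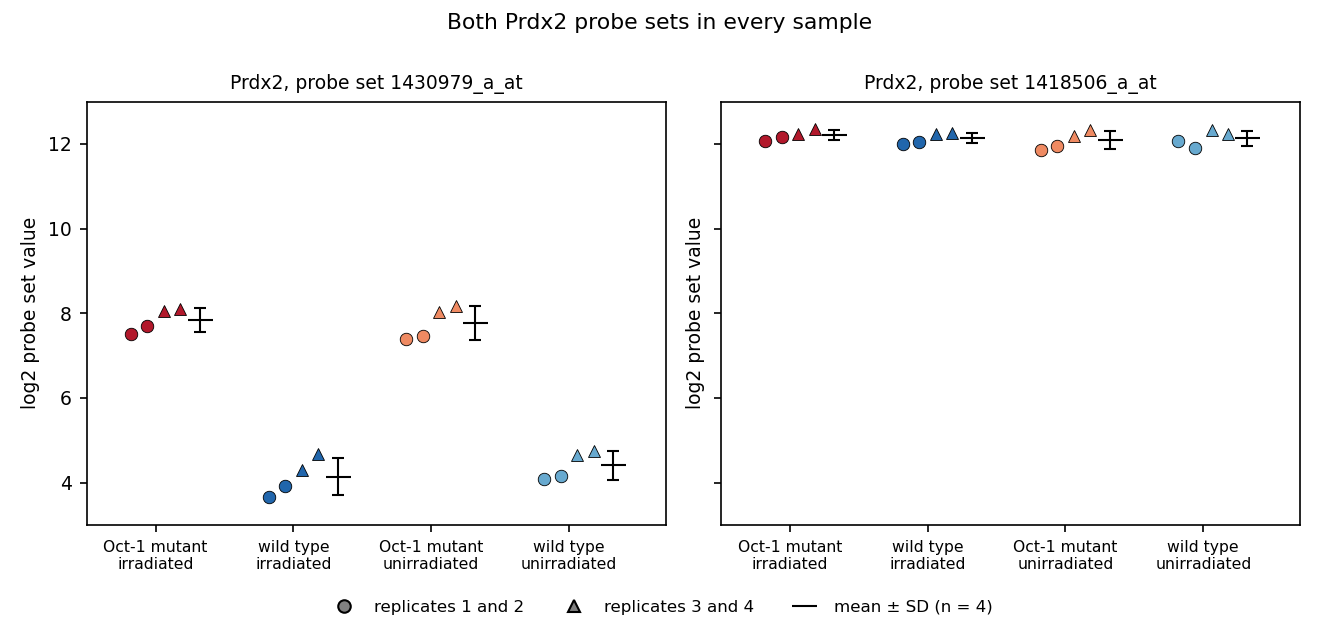
Log2 value of the 2 Prdx2 probe sets in each extract (circles for replicates 1 and 2, triangles for 3 and 4; bars are mean ± SD, n = 4). At 1430979_a_at all mutant points lie above 7, and all wild type points below 5, while at 1418506_a_at the genotypes overlap near 12.

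Txnip, the thioredoxin inhibitor on chromosome 3 (96557957 to 96561857), was higher in the mutant at both of its probe sets. At 1415996_at the irradiated mutants had log2 values of 9.46, 9.65, 9.84 and 9.87 against 8.60, 8.85, 9.36 and 9.05 in irradiated wild type cells. The unirradiated mutants had 9.22, 9.46, 9.69 and 9.71 there against 8.66, 8.60, 8.94 and 9.22 in unirradiated wild type cells. Mutant values were higher throughout in irradiated cells and met wild type values at 1 point, 9.22, in unirradiated cells. At 1415997_at the irradiated mutants had 9.16, 8.85, 8.45 and 8.82 against 8.22, 8.34, 7.81 and 8.14 in irradiated wild type cells. The unirradiated mutants had 9.09, 8.94, 8.20 and 8.41 against 7.95, 8.14, 7.65 and 7.95 in unirradiated wild type cells. Here every mutant value exceeded every wild type value of the same irradiation state.

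Averaged over irradiation, Txnip was 1.63-fold higher at 1415996_at (log2 0.70, SE 0.12, 95% interval 1.36 to 1.94-fold, adjusted p = 0.00115, limma). At 1415997_at it was 1.64-fold higher (log2 0.71, SE 0.14, 95% interval 1.34 to 2.01-fold, adjusted p = 0.00286). Both averaged calls held with every extract left out in turn, with the log2 difference between 0.64 and 0.79. Replicates 1 and 2 alone gave 0.77 and 0.85 at the 2 probe sets, and replicates 3 and 4 alone gave 0.64 and 0.58. The 2 probe sets differed by -0.01 in this comparison (exact permutation p = 0.958, and 0.91 within pairs of replicate numbers). Their values correlated at 0.87 over the 16 extracts with the means of replicates 1 and 2 and of replicates 3 and 4 removed. That correlation includes the genotype difference that both probe sets share. The removed means moved in opposite directions. Replicates 3 and 4 minus replicates 1 and 2 gave 0.40 at 1415996_at and -0.41 at 1415997_at. The genotype difference was 0.74 in irradiated cells at 1415996_at (limma adjusted p = 0.0219) and 0.70 at 1415997_at (adjusted p = 0.0619, and 0.00036 with the replicate number as a block). In unirradiated cells it was 0.66 and 0.73 (adjusted p = 0.0411 and 0.0472). In the fit without a block these single-state calls depended on single extracts, some of them in groups outside the comparison. The log2 difference of the called ones stayed between 0.58 and 0.89 over the leave-outs. With the replicate block, limma adjusted p was 3.02e-05 in irradiated cells at 1415996_at. In unirradiated cells it was 8.82e-05 at 1415996_at and 0.00021 at 1415997_at. The call in irradiated cells at 1415996_at was lost without mutant irradiated replicates 3 or 4 or wild type irradiated replicates 1 or 2, with adjusted p up to 0.0772. The call in unirradiated cells at 1415996_at was lost in 10 of 16 leave-outs (mutant irradiated 2 and 3, wild type irradiated 2 and 4, mutant unirradiated 2, 3 and 4, wild type unirradiated 1, 2 and 3; adjusted p up to 0.125). At 1415997_at it was lost in 12 (mutant irradiated 2 and 4, wild type irradiated 1, 2 and 4, mutant unirradiated 1, 2 and 4, and all 4 of wild type unirradiated; adjusted p up to 0.139). Txnip was not called for irradiation, with averaged differences of 0.15 and 0.18 (adjusted p = 0.498 and 0.451).

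**Figure D2:**
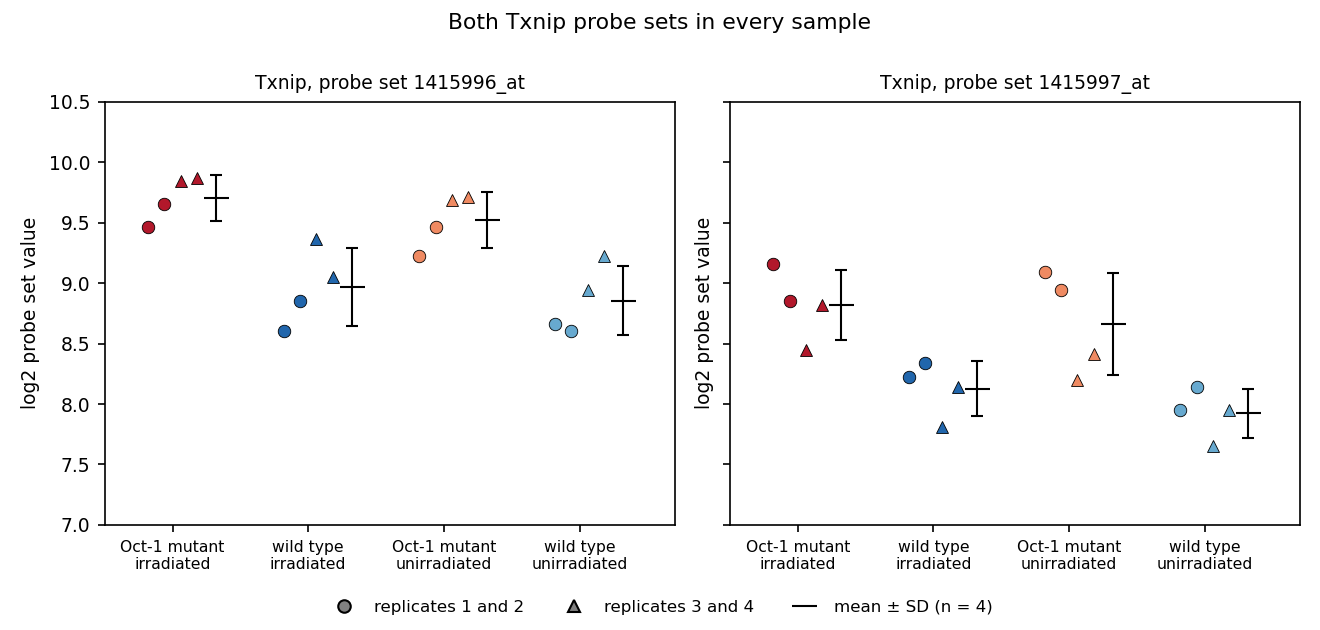
Log2 value of the 2 Txnip probe sets in each extract (circles for replicates 1 and 2, triangles for 3 and 4; bars are mean ± SD, n = 4). In each irradiation state the mutant mean is higher, by 0.66 to 0.74 on the log2 scale, at both probe sets.

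Txnrd1, the reductase that recharges thioredoxin, lies on chromosome 10 (82833951 to 82897724) and had 1 of 3 probe sets called lower in the mutant. At 1421529_a_at the irradiated mutants had 12.38, 12.38, 12.39 and 12.47 against 12.44, 12.51, 12.65 and 12.63 in irradiated wild type cells. The unirradiated mutants had 12.30, 12.20, 12.47 and 12.33 against 12.57, 12.41, 12.55 and 12.57 in unirradiated wild type cells. The mutant values were lower on average but overlapped the wild type values in both irradiation states. The averaged difference was -0.18 (SE 0.05), a 0.884-fold level (limma, adjusted p = 0.0196), and it stayed called in all 16 leave-outs. Within replicates 1 and 2 alone it was -0.17 with an adjusted p of 0.105, and within replicates 3 and 4 alone it was -0.19 with 0.0438. In unirradiated cells alone it was -0.20 (adjusted p = 0.112; 0.0214 with the replicate block) and in irradiated cells -0.15 (adjusted p = 0.264).

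The other 2 Txnrd1 probe sets moved with the replicate number more than with genotype or irradiation. At 1424486_a_at, replicates 1 and 2 lay between 9.20 and 9.95 and replicates 3 and 4 between 7.96 and 8.65 in all groups. Its averaged genotype difference was -0.27 (limma adjusted p = 0.657; 0.0229 with the replicate block), and in unirradiated cells it was -0.40 (adjusted p = 0.77; 0.0343 with the block). At 1424487_x_at the averaged genotype difference was 0.03 (adjusted p = 0.943), and irradiation gave 0.14 (adjusted p = 0.653). No pair of Txnrd1 probe sets passed the exact permutation test of a difference between their genotype differences (adjusted p = 0.329 to 0.869; 0.132 to 0.441 with arrangements kept within pairs of replicate numbers), and the interval of 1424486_a_at, -0.91 to 0.37, was wide.

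**Figure D3:**
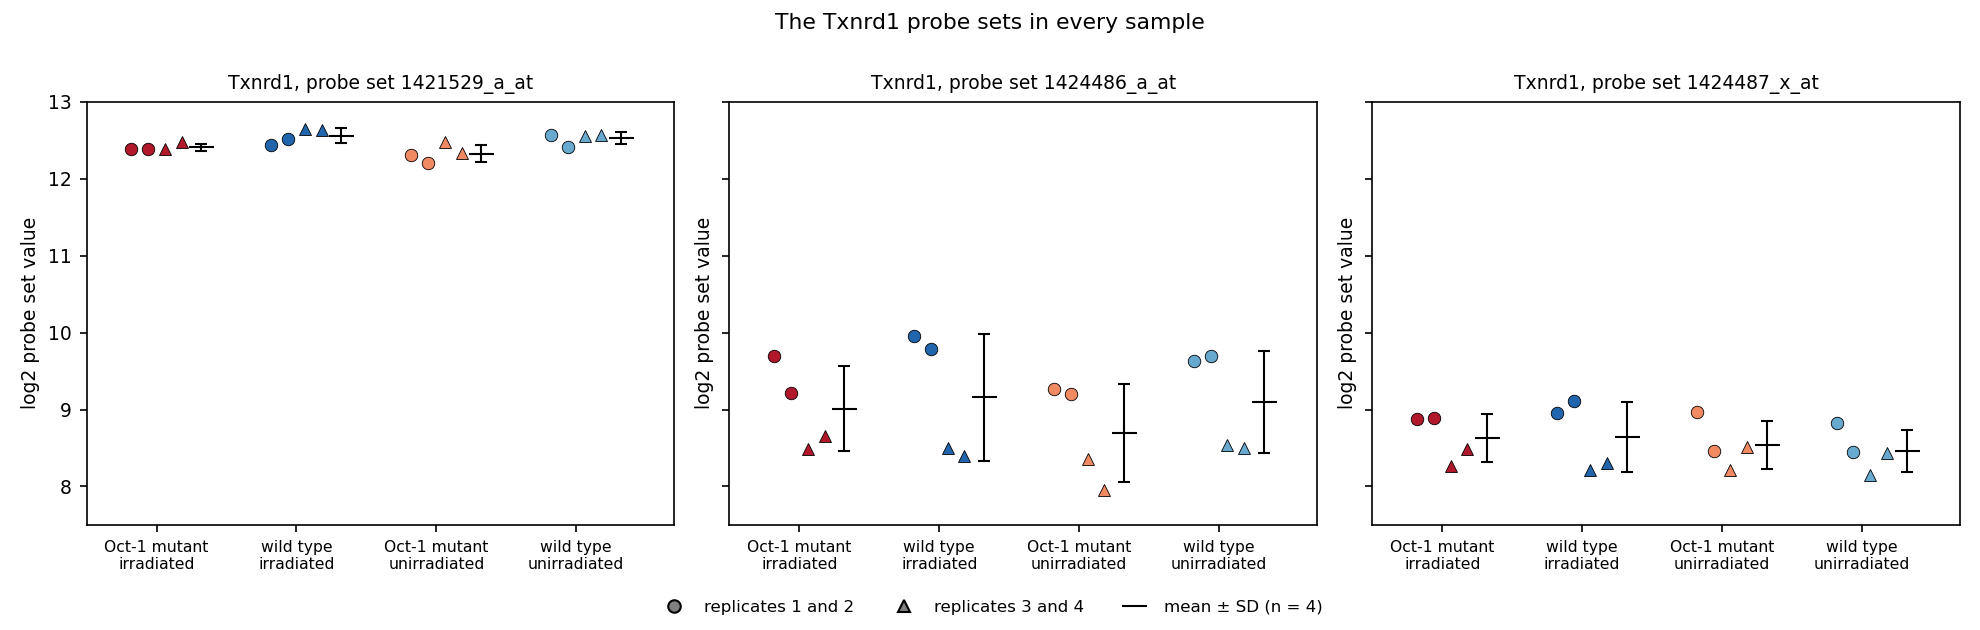
Log2 value of the 3 Txnrd1 probe sets in each extract (circles for replicates 1 and 2, triangles for 3 and 4; bars are mean ± SD, n = 4). At 1424486_a_at the circles lie between 9.20 and 9.95 and the triangles between 7.96 and 8.65 whatever the group, while 1421529_a_at shows the lower mutant means of 12.40 and 12.32 against 12.56 and 12.52.

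Of the thioredoxins themselves, Txn2 had 1 of 3 probe sets called, higher after irradiation, and Txn1 had 0 of 2. Txn2 lies on chromosome 15 (77915051 to 77928994) and Txn1 on chromosome 4 (57943373 to 57956411). Txn2 1452782_a_at had 9.81, 10.20, 9.90 and 9.79 in irradiated mutants against 9.51, 9.71, 9.73 and 9.80 in unirradiated mutants. It had 9.83, 9.87, 10.19 and 10.13 in irradiated wild type cells against 9.61, 9.64, 9.74 and 9.83 in unirradiated wild type cells. Irradiated wild type values all lay at or above 9.83, the highest unirradiated wild type value, and the mutant values overlapped. Averaged over genotype the level was 1.20-fold higher (log2 0.27, SE 0.07, limma adjusted p = 0.0257), with means of 9.97 in irradiated and 9.70 in unirradiated cells. Replicates 1 and 2 alone gave 0.31 and replicates 3 and 4 alone gave 0.23. The call was lost without wild type irradiated replicates 3 or 4, mutant unirradiated replicate 1 or wild type unirradiated replicates 1 or 2 (adjusted p up to 0.0547). The other Txn2 probe sets differed by 0.18 at 1421557_x_at and 0.25 at 1455640_a_at (adjusted p = 0.289 and 0.144). With the replicate block these became calls (adjusted p = 0.0402 and 0.00891), as did the difference of 0.30 at 1452782_a_at in wild type cells alone (0.149 without the block, 0.0431 with it). Between genotypes the 3 Txn2 probe sets differed by -0.05 to 0.08, none of them called. Txn1 1416119_at lay between 13.71 and 13.98 in all 16 extracts and 1456734_at between 5.66 and 6.42. Their averaged irradiation differences were 0.02 and 0.08 and their genotype differences -0.02 and 0.12, with no call.

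Prdx1, a cytosolic peroxiredoxin on chromosome 4 (116685599 to 116700000), had 1 of its 5 shared probe sets called lower after irradiation. At 1433866_x_at the irradiated mutants had 12.83, 12.85, 12.53 and 12.61 against 13.07, 12.99, 13.05 and 12.90 in unirradiated mutants. Irradiated wild type cells had 13.02, 12.83, 12.94 and 12.94 against 13.10, 12.97, 13.36 and 13.03 in unirradiated wild type cells. All irradiated mutant values were below all unirradiated mutant values, and the wild type values overlapped. The averaged difference was -0.24 (SE 0.06), a 0.846-fold level (limma, adjusted p = 0.0164), and it held in all 16 leave-outs. Within replicates 1 and 2 alone it was -0.15 (adjusted p = 0.129) and within replicates 3 and 4 alone -0.33 (0.0263). In mutant cells alone it was -0.30 (adjusted p = 0.0654; 0.0238 with the replicate block). The same probe set differed by -0.17 between genotypes (adjusted p = 0.0978; 0.0435 with the block).

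The other 4 Prdx1 probe sets differed by 0.05, -0.13, -0.03 and -0.04 after irradiation, with no call. In the exact permutation tests, 1 of 22 pairs of probe sets passed for irradiation and 3 of 22 for genotype after adjustment. The irradiation pair was Prdx1 1416000_a_at minus 1433866_x_at, at 0.29 (adjusted p = 0.0269). For genotype, 1 was the Prdx2 pair, whose unadjusted p was fixed beforehand by its known separation. The other passing pairs both held Prdx1 1433866_x_at and so were not independent. They were 1416000_a_at minus 1433866_x_at at 0.24 and 1433866_x_at minus 1434731_x_at at -0.26 (exact permutation, adjusted p = 0.0329 and 0.00449). Kept within pairs of replicate numbers as well (1296 arrangements, also added after the data had been seen), the test passed 2 pairs for genotype and 4 for irradiation. For genotype these were the Prdx2 pair and 1433866_x_at minus 1434731_x_at (adjusted p = 0.017 each), while 1416000_a_at minus 1433866_x_at had 0.0679. For irradiation 3 were in Prdx1: 1416000_a_at minus 1433866_x_at at 0.29, 1416000_a_at minus 1434731_x_at at 0.18 and 1433866_x_at minus 1437014_x_at at -0.20 (adjusted p = 0.034 each). The share of Gm21399 in these signals was not tested.

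Prdx3, the mitochondrial peroxiredoxin, and Prdx4, that of the endoplasmic reticulum, had no call in any comparison of the fit without a block. Prdx3, on chromosome 19 (60864066 to 60874538), lay between log2 9.94 and 10.39, and irradiation gave 0.14 (SE 0.05, limma adjusted p = 0.0788; 0.0527 with the replicate block and 0.0426 with the pairs of replicate numbers as a block). Prdx4 lies on chromosome X (155323918 to 155342272), and Xist differed between the genotypes. Its probe set 1416166_a_at had 9.98, 9.74, 9.98 and 10.08 in irradiated mutants against 10.10, 10.59, 10.30 and 9.94 in unirradiated mutants. It had 9.98, 10.14, 10.23 and 10.17 in irradiated wild type cells against 10.19, 10.45, 10.81 and 10.35 in unirradiated wild type cells. The averaged irradiation difference was -0.30 (SE 0.10, adjusted p = 0.054; 0.0155 with the replicate block). The remaining Prdx4 probe sets gave 0.09 at 1416167_at, -0.12 at 1435731_x_at and 0.07 at 1431269_at on array B, so they did not share a direction. The irradiation difference of 1416166_a_at minus that of 1416167_at was -0.40 (exact permutation, adjusted p = 0.0928; 0.034 within pairs of replicate numbers). Between genotypes the 4 Prdx4 probe sets differed by -0.20 to 0.11, with no call.

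**Figure D4:**
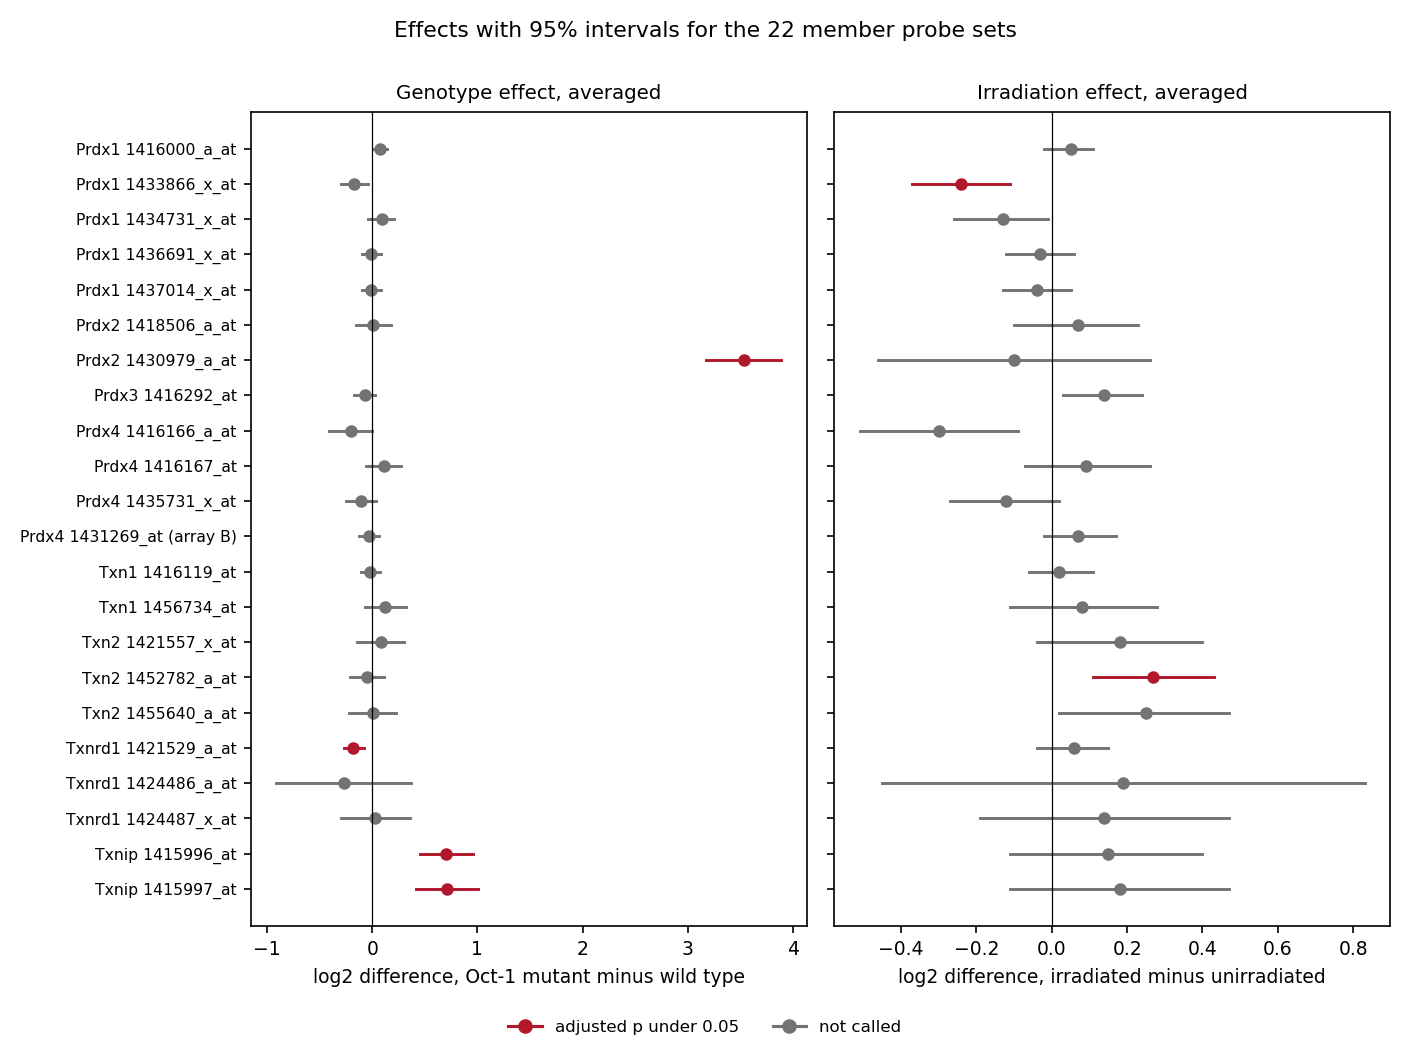
Log2 difference of each of the 22 probe sets, averaged over the other factor, for genotype (Oct-1 mutant minus wild type) and irradiation (irradiated minus unirradiated), with 95% intervals (red where called, grey where not). Prdx2 1430979_a_at stands at 3.53 for genotype, the 2 Txnip probe sets at 0.70 and 0.71, and no irradiation difference exceeds 0.30 in size.

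Counted over all 22 probe sets, the genotype difference averaged over irradiation was called in 4 (3 higher and 1 lower), 18.2% of the members against 6.25% of all probe sets tested. In irradiated cells it was called in 2, both higher (9.09% against 2.09%), and in unirradiated cells in 3, all higher (13.6% against 2.16%). The calls came from 3 genes, Prdx2, Txnip and Txnrd1, and Txnip gave 2 of the 4. The median genotype difference of the 22 was 0.00, against 0.01 for all probe sets. With the replicate block, 6, 3 and 5 members were called in these 3 comparisons, against 13.9%, 6.02% and 6.42% of all probe sets.

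Irradiation averaged over genotype was called in 2 of the 22, Prdx1 1433866_x_at lower and Txn2 1452782_a_at higher, 9.09% against 7.51% of all probe sets, which is near the background. In each genotype alone limma called 0 members, against 2.67% of all probe sets in the mutant and 2.31% in the wild type. At an unadjusted p under 0.05 there were 2 members in the mutant and 5 in the wild type, against 12.7% and 11.2% of all probe sets, and the smallest adjusted p was 0.0654 and 0.149. With the replicate block, 5 members were called for the averaged irradiation difference, against 14.9% of all probe sets, and 1 in each genotype alone, against 7.15% in the mutant and 6.11% in the wild type. The irradiation effect in mutant minus that in wild type was called in 0 members and in 0% of all probe sets (limma; 0 members, and 1.45% of all, had an unadjusted p under 0.05). For Txnip the 95% intervals of that difference, -0.44 to 0.59 and -0.62 to 0.55, still held effects of the size of the genotype difference's lower bounds. For Prdx2 1430979_a_at it was 0.35 (-0.38 to 1.07).

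**Figure D5:**
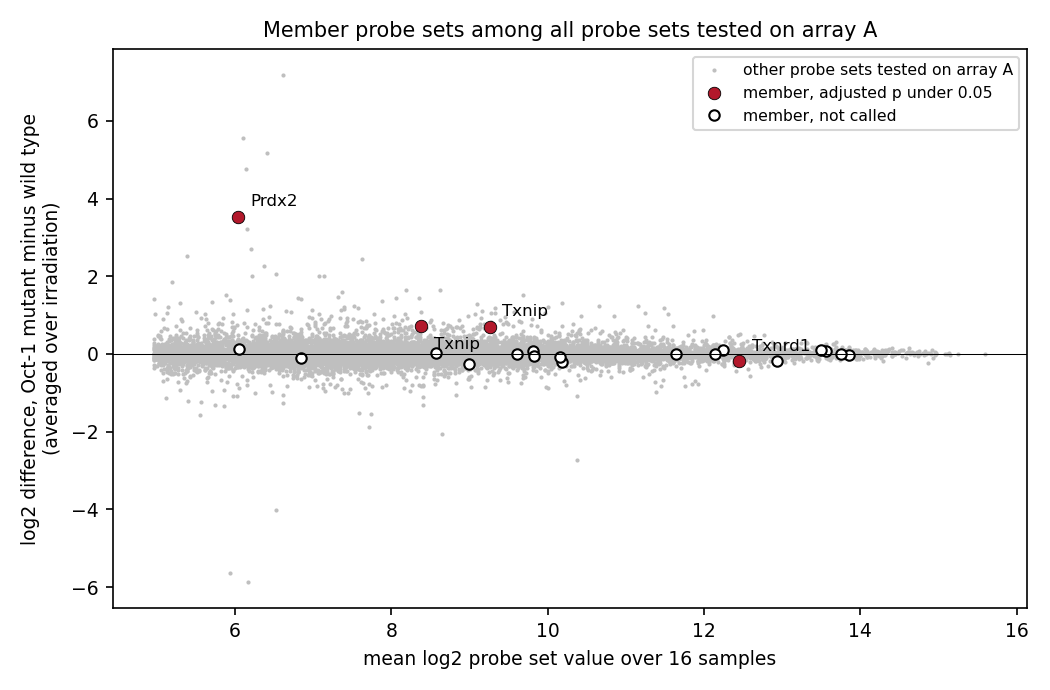
Averaged genotype difference (log2, Oct-1 mutant minus wild type) against mean log2 level for all probe sets tested on array A (grey) with the members as larger points, red where called. Prdx2 1430979_a_at stands at 3.53, and the other members lie between -0.27 and 0.71.

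Partners of the thioredoxin system were called in small numbers. Of 19 tested genes of 20 listed thioredoxin and glutaredoxin partners, 3 were called higher in the mutant and 0 lower, against 6.25% of all probe sets called in either direction, with a list median of 0.06 against 0.01 for all probe sets. These were Srxn1, the sulfiredoxin that repairs over-oxidised peroxiredoxins, at 0.24 (SE 0.05, limma adjusted p = 0.00269), Txndc12, a thioredoxin-like protein of the endoplasmic reticulum, at 0.28 (adjusted p = 0.0267), and Txnl4a, a spliceosome protein with a thioredoxin fold, at 0.21 (adjusted p = 0.0182). In irradiated cells 2 of the 19, Srxn1 and Txnl4a, were called higher in the mutant, against 2.09% of all probe sets called. In unirradiated cells limma called 0, against 2.16%, and 4 had an unadjusted p under 0.05, against 11.2%. Irradiation averaged over genotype raised 2 of the 19 and lowered 0, near the 7.51% of all probe sets called: Nxn, nucleoredoxin, by 0.44 (SE 0.09, limma adjusted p = 0.00476; 0.51 in the mutant alone, adjusted p = 0.0328), and Glrx5, a mitochondrial glutaredoxin of iron-sulphur cluster assembly, by 0.27 (adjusted p = 0.014). With the replicate block more partners passed, as did more of all probe sets. For genotype there were 5 of 19 averaged over irradiation (13.9% of all probe sets), 3 in irradiated (6.02%) and 2 in unirradiated cells (6.42%). For irradiation there were 5 averaged over genotype (14.9%), 3 in the mutant (7.15%) and 1 in the wild type (6.11%). None of these partners was lower. The genotype additions were Msrb1, a methionine sulfoxide reductase, at 0.32 (adjusted p = 0.0615 without the block, 2.58e-05 with it) and Nxn at 0.15 (0.353 and 0.0398), named here although not called without the block.

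The genes most closely tied to Txnip by family or control were not called. Of 7 listed, the alpha-arrestins Arrdc1 to Arrdc4 and the genes of the factors Mlx, MondoA and ChREBP, 6 were tested and limma called 0 in any comparison. For the averaged genotype difference 1 had an unadjusted p under 0.05, against 19.1% of all probe sets. With the replicate block 1 of the 6, Arrdc1, was called for irradiation averaged over genotype (0.26, limma adjusted p = 0.0953 without the block, 0.0327 with it). Over all probe sets 14.9% were called there. Of 12 tested genes of the NRF2 pathway, which controls Txnrd1, Prdx1 and Srxn1 among others, 3 were called higher and 1 lower in the mutant, against 6.25% of all probe sets. With the replicate block 4 were higher and 1 lower, against 13.9% of all probe sets. Nqo1, a quinone reductase, differed by 0.43 (adjusted p = 0.00341), Gclm, a subunit of glutathione synthesis, by 0.25 (adjusted p = 0.0235), and Nfe2l2, which encodes NRF2 itself, by 0.23 (adjusted p = 0.0331). Gsr, glutathione reductase, differed by -0.45 (adjusted p = 0.014). Srxn1, Nqo1, Gclm and Nfe2l2 were thus called higher in the mutant, and Gsr and Txnrd1 1421529_a_at lower. The other Txnrd1 probe sets were not called. A part of NRF2 in these differences was not tested. After irradiation, Hmox1, heme oxygenase, rose by 0.52 (adjusted p = 0.00106) and Taldo1, transaldolase, by 0.33 (adjusted p = 0.0254). Of the 3 sestrins, stress-induced proteins, 1 was called: Sesn2, a p53 target, rose by 0.70 in mutant and 0.97 in wild type cells (adjusted p = 0.00994 and 0.000796).

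The patterns most like those of the members over the 16 extracts were found by Pearson correlation after removal of the mean of each pair of replicate numbers, as a description without a test, since these extracts share genotype differences. For Txnip 1415996_at they were Gpx3, a secreted glutathione peroxidase, and Gstm2, a glutathione transferase, both at 0.97, and Thra, a thyroid hormone receptor, Fmod, an extracellular matrix proteoglycan, and Ripk3, a kinase of necroptosis, at 0.96 each. Gpx3 differed by 1.44 between genotypes and Gstm2 by 0.78. The other Txnip probe set, 1415997_at, was matched after the data were seen, and its list shared no gene with this one. It held Vcan, Fbxo32 and Myl12b at 0.95 each and Tcaf2 and H2ac19 at 0.93 each. Their genotype differences lay between 0.26 and 1.45. For Prdx2 1418506_a_at they were Kif5b, a kinesin motor, at 0.87, the transcription factors Myc at 0.83 and Nfat5 at 0.81, Atg14, an autophagy protein, at 0.79 and Gdpd5, a phosphodiesterase, at 0.77, whose genotype differences lay between -0.05 and 0.09.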

How the data were processed

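The authors deposited log2 probe set values for each array; the base was inferred from the values, which spanned 0.26 to 15.75 (array A) and 0.10 to 15.51 (array B). No source used here states how they were summarised and scaled. Medians of the arrays were 6.16 to 6.28 for array A and 3.67 to 3.78 for array B, and the values were used as they are. No background or detection values were used.

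Each array type was fitted alone with limma 3.58.1 (R 4.3.3), with an intensity trend, 4 group means and contrasts between them. Control probe sets were left out, as were probe sets with a mean under the 40th percentile, leaving 13576 on array A and 13507 on array B. Adjusted p-values are Benjamini-Hochberg over all probe sets of an array type; calls are at 0.05, and counts are summed over both array types. Recovery of known changes was checked on simulated array A data. Their noise was independent between arrays, and the planted genotype changes were larger than most member differences. The check thus does not cover small differences or replicates that deviate together. Probe sets were named from the platform annotation where it gives 1 gene, except the shared Prdx1 probe sets.

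Groups came from the labels. Same-numbered replicates of different groups deviated together (24 pairs an array type, with correlations of 0.32 to 0.72 for array A and 0.24 to 0.60 for B), so a replicate block is given where it changes a call. Much of this followed replicates 1 and 2 against 3 and 4, since different numbers of one such pair correlated at medians of 0.56 and 0.40. The alternatives were other filters, scalings and weights, the blocks, each such pair of numbers alone, only the groups compared, and each extract left out.

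The members and gene lists were chosen with earlier results of these data known. All members are named; other lists give up to 4 called genes by smallest adjusted p (all where up to 6 were called), and likeness gives the 5 most correlated genes. Promoters were read with Python 3.11.15.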

Additional observations from a re-analysis of the deposited data

Results flagged for a closer look

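In 88 groups of 4 replicates (22 probe sets by 4 groups), 3 had 1 sample whose gap to its nearest neighbour was above Dixon's 95% critical share of the group's range, and chance gives about 1 in 20 groups. Txn1 1416119_at was at 13.71 in unirradiated mutant replicate 1, below the 13.85 to 13.87 of the other replicates. Txnrd1 1421529_a_at was at 12.47 in irradiated mutant replicate 4, above the 12.38 to 12.39 of the others, and at 12.41 in unirradiated wild type replicate 2, below the 12.55 to 12.57 of the others. The genotype call of Txnrd1 1421529_a_at held without either extract.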

How the results depend on the processing

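Of 288 alternative values for the 11 probe set results called, none changed direction, while 246 kept their call and 42 lost it, 31 of them on leaving out 1 extract. Counts of called members moved as follows. With the replicate block, or with only the pairs of replicate numbers as a block, irradiation in the wild type and in the mutant gave 1 instead of 0, and the genotype difference in unirradiated cells gave 5 instead of 3; irradiation averaged over genotype gave 5 with the first block and 6 with the second instead of 2. Array weights gave 1 instead of 0 for irradiation in the mutant. Without a filter, or with only the groups compared, the genotype difference in unirradiated cells gave 1. In irradiated cells it gave 1 instead of 2 with the stricter filter, which tested 18 members and dropped Prdx2 1430979_a_at, and with only the groups compared. The replicate block ended no call of a member or a listed gene. It changed no member call beyond those given beside the results. In the lists it moved counts further: for genotype, fibroblast markers gave 7 higher in irradiated and 6 in unirradiated cells instead of 1 each, the NRF2 pathway gave 1 higher and 1 lower in irradiated cells instead of 0 and 3 higher and 1 lower in unirradiated cells instead of 1 higher, and sestrins gave 1 averaged instead of 0 (Sesn3, 0.43, adjusted p = 0.00484 instead of 0.0638); for irradiation averaged, the NRF2 pathway gave 3 higher instead of 2 and fibroblast markers 5 lower instead of 4. For genotype, neural markers gave 2 of 4 lower averaged and 1 lower in each irradiation state instead of 0. Leukocyte markers gave 1 of 3 higher averaged and in unirradiated cells instead of 0. Epithelial markers gave 1 of 3 higher in unirradiated cells instead of 0, and sestrins 1 higher in irradiated cells instead of 0. Some irradiation counts of the lists also moved and are not given. Over all probe sets the replicate block also raised the share called. For genotype it rose from 2.09% to 6.02% in irradiated cells, from 2.16% to 6.42% in unirradiated cells and from 6.25% to 13.9% averaged. For irradiation averaged it rose from 7.51% to 14.9%. Exact permutation within pairs of replicate numbers, chosen after seeing the data, passed 4 pairs of probe sets instead of 1 for irradiation and 2 instead of 3 for genotype. Both genotype counts include the Prdx2 pair, whose result was fixed beforehand. Leaving out each extract gave 4 to 4 calls for genotype averaged, 1 to 3 for genotype in irradiated cells (1 without mutant irradiated replicate 4 or wild type irradiated replicates 1 or 2), 1 to 3 in unirradiated cells, 0 to 0 for the difference between irradiation effects, 0 to 1 for irradiation in the mutant (1 without wild type unirradiated replicate 3), 0 to 0 in the wild type and 1 to 4 for irradiation averaged (4 without mutant unirradiated replicate 4, and 1 without wild type irradiated replicates 3 or 4, mutant unirradiated replicate 1 or wild type unirradiated replicate 2). The causes of these moves were not tested, beyond fewer samples or probe sets in the fits. With 4 arrays a group and no detection values, low levels and small differences are not resolved.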

Other observations

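The Prdx2 probe set that differed between genotypes was also matched to other profiles, a choice made after the data were seen and given as a description. Over the 16 extracts, with the mean of each pair of replicate numbers removed, 1430979_a_at correlated at 0.99 with Ifi202b, an interferon-inducible gene, and with the Y-linked Eif2s3y, and at 0.98 with Mgst1, a microsomal glutathione transferase, Ctse, a protease, and Parp3, an ADP-ribosyltransferase of DNA repair. Their averaged genotype differences were 4.76 for Ifi202b, 5.56 for Eif2s3y, 3.21 for Ctse, 0.98 for Mgst1 and 0.92 for Parp3. Genotype means were not removed, so these correlations largely restate genotype differences that the probe sets share. Ifi202b was at 8.16 to 9.18 in mutant against 3.49 to 4.01 in wild type extracts.

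Among fibroblast markers, those called between genotypes and those called after irradiation differed in direction. Dcn and Lum, proteoglycans of the matrix, were higher in the mutant by 2.01 and 1.46 on the log2 scale (limma adjusted p = 2.67e-05 and 0.00505). After irradiation, averaged over genotype, 4 of 12 were called lower and 0 higher, against 7.51% of all probe sets called in either direction. Pdgfra and Prrx1 were among the lower ones (-0.72 and -0.42, limma adjusted p = 0.000561 and 0.000117). Pdgfra was itself higher in the mutant, by 0.49 (adjusted p = 0.0103).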
